A study of Mus musculus with 6 samples.

Results

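C1qa, C1qb, C1qc, C2, Cfb, C4b, C3, Serping1 and Cfi encode 9 components and regulators of the complement system, and their RNA was followed here in mouse retina after injection of the compounds SH-42 and SH-80. The genes were chosen by name: every probe that is not a control and whose RefSeq transcript belongs to one of them was taken, in both channels of all 6 arrays. This gave 11 probes in 29 spots per array, and 9 of the 24438 genes tested. C3 and Serping1 had 2 probes each and the others 1, and all 11 probes were well above background in both channels on all 6 arrays.

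Complement is a cascade of plasma and tissue proteins that marks cells, debris and microbes for removal. C1q, built from the products of C1qa, C1qb and C1qc, recognises the target and starts the classical pathway, in which C2 and C4b form the enzyme that cleaves C3. Factor B (Cfb) supplies the protease of the alternative pathway, and all routes meet at C3. Serping1 encodes C1 inhibitor, which blocks the first proteases of the classical pathway, and Cfi encodes factor I, which inactivates C3b and C4b. In brain and retina, C1q is made mainly by microglia, and C1q and C3 are known for tagging synapses and debris for uptake by these cells.

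Adult male C57BL/6 mice, 12 per group, had received SH-42, SH-80 or phosphate-buffered saline (PBS, the control) into the vitreous of the right eye. Each compound is given as 1 µM in the labels, and the retina was taken at day 7. Total RNA came from tubes of 4 pooled retinas. Each of 6 Agilent arrays with 2 colours, 3 per compound, set RNA labelled with a compound (Cy3) against RNA labelled control (Cy5). SH-42 and SH-80 are known here only by these code names, all animals carried the same strain background, and no uninjected eye was measured on these arrays. Whether the control pools were separate for each array is not stated, so both compounds' comparisons may share them, and p-values measure only the spread between these arrays. In pooled tissue, fewer cells of a type and less RNA per cell cannot be told apart.

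Depending on the array, Cy3 was well above background in 58.3% to 63.1% of spots and Cy5 in 70.9% to 76.7%, and 0 spots were saturated. SH-42 replicate 1 stood apart: across genes, which are not independent replicates, r between its log ratios and those of any other array was -0.154 to 0.163, against 0.471 to 0.866 for the 10 pairs without it. Each member's result is therefore given with and without it. All 10 rod photoreceptor markers on the list were above background in both channels, so the defining cells of retina were seen on all arrays. Slide 1 held SH-42 replicates 1 and 2, and slide 2 held SH-42 replicate 3 and all SH-80 arrays. All signed values are log2 of Cy3 over Cy5, after loess normalization within each array, so that higher means higher in Cy3. By the labels Cy3 holds the compound, no array has the dyes exchanged, and the value table deposited with the series runs the opposite way, Cy5 over Cy3, so the direction against control is not settled. Were the treated RNA in Cy5, all signs would be the opposite. A dye effect common to all arrays also remains in each ratio.

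The complement genes varied between arrays far more in Cy5, labelled control, than in Cy3, labelled with the compound. Over the 6 arrays, the normalized log2 signal of a member spanned 0.13 to 0.28 in Cy3, beside a median span of 0.179 over all genes. In Cy5 the members spanned from 0.99 for C2 to 4.52 for C3, beside a median of 0.384 and a 95th percentile of 1.49 over all genes. The Cy5 span of 6 members, C3, C1qa, C1qc, C1qb, Serping1 and C4b, lay above that percentile, and 99.9% of genes had a smaller Cy5 span than C3. In 7 members, all but C2 and Cfi, SH-42 replicate 1 had the highest Cy5 signal and SH-42 replicate 2 the next. Marker lists of other tissues also differed between the Cy5 pools. The log2 Cy5 sum of 7 skeletal muscle genes was 13.58, 10.51 and 10.32 on SH-42 replicates 1 to 3 and 10.26, 13.52 and 10.48 on SH-80 replicates 1 to 3, high on SH-42 replicate 1 and SH-80 replicate 2. That of 5 genes of cornea and surface epithelium was 12.26, 12.31 and 13.3 against 11.97, 14.14 and 12, highest on SH-80 replicate 2. The median log2 ratio of the 10 rod markers was 0.535 on SH-42 replicate 1, where all 9 members were negative, and -0.175 to 0.0355 on the other arrays. The part of these differences in the complement values was not tested.

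**Figure D1:**
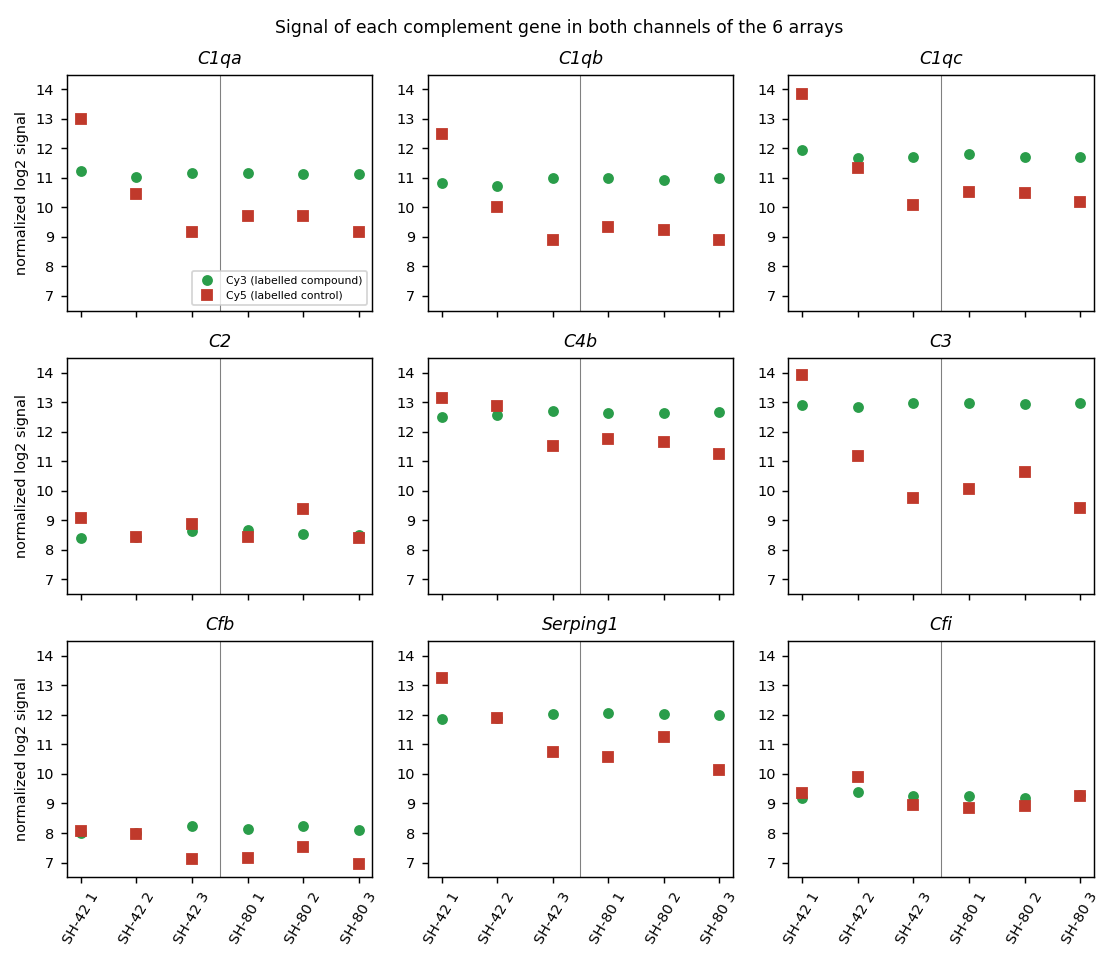
Normalized log2 signal of each complement gene (brightest probe) in Cy3 (circles, labelled compound) and Cy5 (squares, labelled control) on each of the 6 arrays, with the SH-42 arrays left of the line and the SH-80 arrays right of it. The circles lie almost level, with spans of 0.13 to 0.28, whereas the squares spread over as much as 4.52 for C3.

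The recognition chains C1qa, C1qb and C1qc moved as a unit from array to array. C1qa had log2 ratios of -1.77, 0.58 and 2.00 on SH-42 replicates 1 to 3 and of 1.47, 1.44 and 1.96 on SH-80 replicates 1 to 3. C1qb had -1.68, 0.71 and 2.08 on the SH-42 arrays and 1.66, 1.70 and 2.09 on the SH-80 arrays. C1qc had -1.90, 0.37 and 1.64 against 1.29, 1.21 and 1.51. For each chain SH-42 replicate 1 was the lowest array and the only negative one, SH-42 replicate 3 lay near the level of the SH-80 arrays, and the groups overlapped. The mean over the SH-80 arrays was 1.62 ± 0.291 (SD, n = 3) for C1qa, 1.82 ± 0.235 for C1qb and 1.34 ± 0.155 for C1qc. Over the SH-42 arrays it was 0.27 ± 1.91, 0.37 ± 1.90 and 0.04 ± 1.80, so the spread there was many times wider.

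The C1q ratios followed the Cy5 signal. For C1qa the log2 Cy5 signal was 13.01, 10.46 and 9.17 on SH-42 replicates 1 to 3 and 9.70, 9.70 and 9.18 on the SH-80 arrays, while the Cy3 signal stayed between 11.04 and 11.24. On the linear scale, before dye normalization, C1qa spanned 15-fold in Cy5 and 1.08-fold in Cy3, C1qb 13-fold and 1.11-fold, and C1qc 14.4-fold and 1.19-fold. C1qc was printed in 10 spots on each array, and the SD of the log2 ratio over these spots was 0.0391 to 0.0631. The differences between arrays were therefore much larger than those between spots of the same probe.

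None of the chains passed the test, which was limma's moderated test over all genes with Benjamini-Hochberg adjustment and a threshold of 0.05. For SH-80, C1qa differed by 1.62 ± 0.629 (SE; adjusted p = 0.123), C1qb by 1.82 ± 0.624 (adjusted p = 0.0943) and C1qc by 1.34 ± 0.588 (adjusted p = 0.16). For SH-42 the values were 0.27 ± 0.629, 0.37 ± 0.624 and 0.04 ± 0.588, with adjusted p of 0.725 or more and 95% intervals that reach from -1.39 to 1.88. Without SH-42 replicate 1, the SH-80 values stood at an adjusted p of 0.00956, 0.00782 and 0.0102 and passed, in a fit that called 38.9% of all genes. The SH-42 means became, without it, 1.29 ± 0.313, 1.39 ± 0.296 and 1.00 ± 0.269 (adjusted p = 0.0953, 0.0764 and 0.112). All 6 arrays share 1 estimate of the spread, to which this array belongs in the fit of either compound.

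C1qb, C1qc and C1qa follow each other on chromosome 4 in the RefSeq annotation of GRCm38.p6. Because the chains moved together, the 250 bases before the RefSeq start of C1qb and C1qc are shown, from the minus strand of GRCm38.p6 at chr4:136886201-136886450 and chr4:136892915-136893164, with matches to short motifs in capitals. The table of promoters used here holds 3 of the 9 members.
C1qb: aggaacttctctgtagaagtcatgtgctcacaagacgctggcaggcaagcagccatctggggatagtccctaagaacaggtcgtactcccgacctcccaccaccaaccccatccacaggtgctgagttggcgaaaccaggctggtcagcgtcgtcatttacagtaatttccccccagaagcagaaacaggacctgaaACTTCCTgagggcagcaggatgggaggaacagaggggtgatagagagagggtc
C1qc: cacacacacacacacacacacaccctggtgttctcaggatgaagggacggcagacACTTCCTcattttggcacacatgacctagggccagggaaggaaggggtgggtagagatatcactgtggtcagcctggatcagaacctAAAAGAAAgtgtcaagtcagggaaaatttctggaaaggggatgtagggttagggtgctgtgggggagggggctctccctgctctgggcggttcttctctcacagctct
Both windows hold the ETS motif AGGAAGT on the minus strand of the window, printed as its reverse complement, at -53 to -47 from the start of C1qb and at -195 to -189 from that of C1qc. The motif stood in 7.69% of the 32851 promoters of the same length, searched on both strands. The window of C1qc also holds the IRF motif AANNGAAA at -108 to -101, which 21.3% of promoters hold and that of C1qb does not. A match is a description of the letters and not of a bound factor.

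The proteases did not move together. Cfb had log2 ratios of -0.05, 0.05 and 1.14 on SH-42 replicates 1 to 3 and of 0.97, 0.70 and 1.14 on the SH-80 arrays. SH-42 replicates 1 and 2 lay near 0, SH-42 replicate 3 shared the top value with SH-80 replicate 3, and the groups overlapped. For SH-80, Cfb was higher by 0.94 ± 0.231 (SE), 1.92-fold, with a 95% interval of 0.38 to 1.5 and an adjusted p of 0.0457. That call ended in 11 of 23 alternatives. Among the 23, the fit of the SH-80 arrays alone and that of slide 2 alone are identical for SH-80. Cfb stood at an adjusted p of 0.388 (0.37 ± 0.139 midway between the slides, though no SH-80 array was on slide 1) with the slide as a fixed block. It stood at 0.0589 with the slide as a random block and 0.0815 with the replicate block. It stood at 0.0572 (1.34 ± 0.344) with an offset of 0, 0.0799 with scale normalization, 0.0516 (1.96 ± 0.524) with the deposited value table and 0.0541 with the strict probe filter. Leaving out SH-42 replicate 2 gave 0.0649, and leaving out single SH-80 arrays 0.149 to 0.24. For SH-42 the difference was 0.38 ± 0.231 (adjusted p = 0.349), and 0.59 ± 0.242 (adjusted p = 0.203) without replicate 1. The SH-80 value without that array was 0.94 ± 0.198 (adjusted p = 0.0165), in a fit that called 38.9% of all genes. The probe was dim in Cy5, at a log2 signal of 6.96 to 8.06, and an offset of 50 added before the logarithm pulls ratios of dim probes towards 0.

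C2, which lies beside Cfb on chromosome 17 with only the microRNA gene Mir6972 between them in the annotation, had ratios of -0.68, -0.01 and -0.25 on the SH-42 arrays and of 0.25, -0.86 and 0.10 on the SH-80 arrays. It was lowest on SH-80 replicate 2, where its Cy5 signal was highest (9.38), and neither group kept to one side of the other. Its difference was -0.17 ± 0.229 (adjusted p = 0.638) for SH-80 and -0.31 ± 0.229 (adjusted p = 0.426) for SH-42, and their 95% intervals of -0.72 to 0.39 and -0.87 to 0.24 exclude a shift of the size measured for Cfb on the SH-80 arrays. With SH-42 replicate 1 left out, C2 stood at -0.17 ± 0.206 (adjusted p = 0.541) and -0.13 ± 0.252 (adjusted p = 0.766). Across the 6 arrays C2 correlated with the other 8 members at r of 0.0396 to 0.559. This is a description over arrays that share dyes and possibly control pools.

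C3, the component at which all pathways meet, had the widest range of all members. Its log2 ratios were -1.04, 1.66 and 3.20 on SH-42 replicates 1 to 3 and 2.92, 2.31 and 3.56 on SH-80 replicates 1 to 3. Only SH-42 replicate 1 was negative, and SH-42 replicate 3 lay within the SH-80 range. The log2 Cy5 signal was 13.93, 11.17 and 9.75 on the SH-42 arrays and 10.05, 10.62 and 9.40 on the SH-80 arrays, 25.1-fold from highest to lowest on the linear scale before dye normalization. The Cy3 signal lay between 12.83 and 12.96, a range of 1.07-fold on that linear scale. The brighter probe was printed in 10 spots, whose SD was 0.0361 to 0.059 per array.

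For SH-80, C3 was higher by 2.93 ± 0.728 (SE), 7.62-fold, with a 95% interval of 1.17 to 4.69 and an adjusted p of 0.0465. This call too ended in 11 of 23 alternatives, with the same identical pair of fits among them. With the slide as a fixed block the C3 value midway between the slides was 1.49 ± 0.766 (adjusted p = 0.47), though no SH-80 array was on slide 1. It was 2.4 ± 1 (adjusted p = 0.227) with scale normalization. The adjusted p was 0.0603 with the slide as a random block, 0.0837 with the replicate block, 0.0561 with an offset of 0, 0.0505 with the deposited value table and 0.0555 with the strict probe filter. It was 0.0753 without SH-42 replicate 2 and 0.151 to 0.242 without single SH-80 arrays. The second probe of C3 had the same signs on a smaller scale, with -0.83, 1.28 and 2.11 on the SH-42 arrays and 2.02, 1.86 and 2.24 on the SH-80 arrays, and passed as well when probes were tested singly (2.04 ± 0.496, adjusted p = 0.0454). For SH-42 the difference was 1.28 ± 0.728 (adjusted p = 0.322, interval -0.48 to 3.04). Without SH-42 replicate 1 it was 2.43 ± 0.402 (adjusted p = 0.0482) for SH-42, which then passed, beside 1.78% of all genes. The SH-80 value of C3 then stood at an adjusted p of 0.00667, beside 38.9% of all genes that passed.

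**Figure D2:**
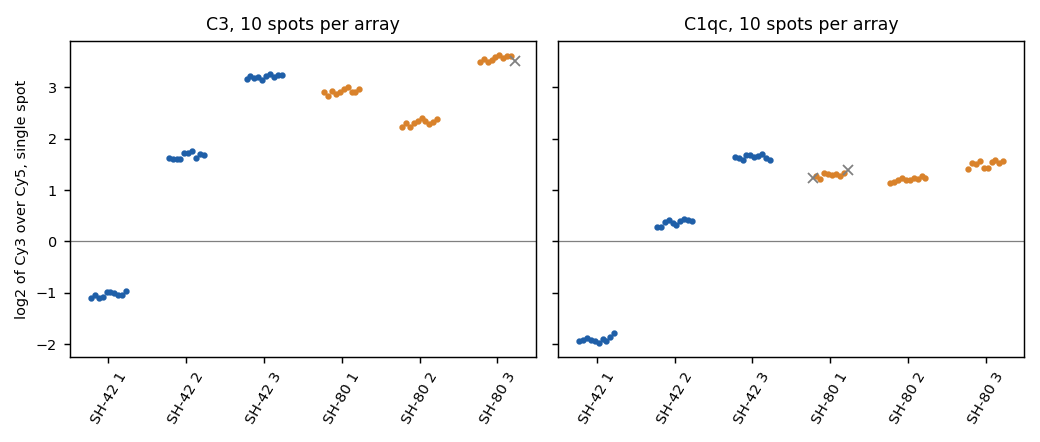
Log2 ratio of Cy3 over Cy5 in each of the 10 spots of the C3 probe (left) and the C1qc probe (right) on each array, with spots that the scanner software marked as outliers drawn as grey crosses and left out of the values. Spots of 1 array lie close together, whereas the arrays range from about -1 to above 3 for C3.

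The 250 bases before the RefSeq start of C3, on the minus strand of GRCm38.p6 at chr17:57228137-57228386, are shown because C3 had the widest range of ratios, again with motif matches in capitals.
C3: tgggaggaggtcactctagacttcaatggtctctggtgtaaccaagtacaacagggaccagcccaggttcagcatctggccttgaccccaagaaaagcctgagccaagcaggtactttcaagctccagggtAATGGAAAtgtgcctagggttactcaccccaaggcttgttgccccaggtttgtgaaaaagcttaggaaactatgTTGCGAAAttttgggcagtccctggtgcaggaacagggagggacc
The window holds the C/EBP motif TTGCNNAA at -45 to -38, a motif found in 9.56% of promoters, and the IRF motif AANNGAAA at -119 to -112. None of these matches overlap. The C/EBP motif was not found in the windows of C1qb and C1qc, nor the ETS motif in that of C3. The TATA box letters TATAAA, which 12.4% of promoters hold on either strand, were not found in any of the 3 windows. Nor were the STAT letters TTCNNNGAA (7.02%) and the NF-kB letters GGANNTTCC (3.59%). The AP-1 letters TGANTCA, held by 6.75% of promoters, were absent from these windows as well.

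C4b, the partner of C2 in the classical C3-cleaving enzyme, had log2 ratios of -0.67, -0.31 and 1.19 on the SH-42 arrays and of 0.89, 0.97 and 1.41 on the SH-80 arrays. Both slide 1 arrays were negative, the 4 arrays of slide 2 were positive, and the groups overlapped through SH-42 replicate 3. Its Cy5 signal was 13.15, 12.88 and 11.50 on the SH-42 arrays and 11.74, 11.65 and 11.25 on the SH-80 arrays, against a Cy3 signal of 12.48 to 12.69. For SH-80 the difference was 1.09 ± 0.337 (2.13-fold, adjusted p = 0.0744), which did not pass, and for SH-42 it was 0.07 ± 0.337 (adjusted p = 0.907). The adjusted p was 0.0242 for SH-80 without SH-42 replicate 1, in a fit that called 38.9% of all genes. For SH-42 it was then 0.418, where the mean was 0.44 ± 0.328. The near-identical C4a had no probe of its own here, so the C4b probe may also read C4a.

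Of the regulators, Serping1 ranged far more between arrays than Cfi. Serping1 had log2 ratios of -1.41, 0.02 and 1.30 on the SH-42 arrays and of 1.5, 0.80 and 1.86 on the SH-80 arrays, and its second probe read -1.25, 0.07 and 1.27 against 1.35, 0.82 and 1.75. The SH-42 arrays thus ran from clearly negative through about 0 to a value inside the SH-80 range. The SH-80 difference was 1.39 ± 0.476 (2.61-fold, adjusted p = 0.094), and 1.31 ± 0.437 (adjusted p = 0.0895) for the second probe. The SH-42 difference was -0.03 ± 0.476 (adjusted p = 0.975, interval -1.18 to 1.12). Without SH-42 replicate 1 the mean for SH-42 turned to 0.66 ± 0.340 (adjusted p = 0.269). SH-80 then passed at an adjusted p of 0.0146, in a fit that called 38.9% of all genes.

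Cfi had the smallest range of ratios, with -0.19, -0.53 and 0.30 on the SH-42 arrays and 0.42, 0.25 and 0.05 on the SH-80 arrays. It was positive on all SH-80 arrays but lowest on SH-42 replicate 2 and not on replicate 1. Its differences were 0.24 ± 0.155 (adjusted p = 0.311, interval -0.13 to 0.61) for SH-80 and -0.14 ± 0.155 (adjusted p = 0.589, interval -0.51 to 0.23) for SH-42. Leaving out SH-42 replicate 1 gave 0.24 ± 0.154 (adjusted p = 0.252) and -0.12 ± 0.189 (adjusted p = 0.718).

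**Figure D3:**
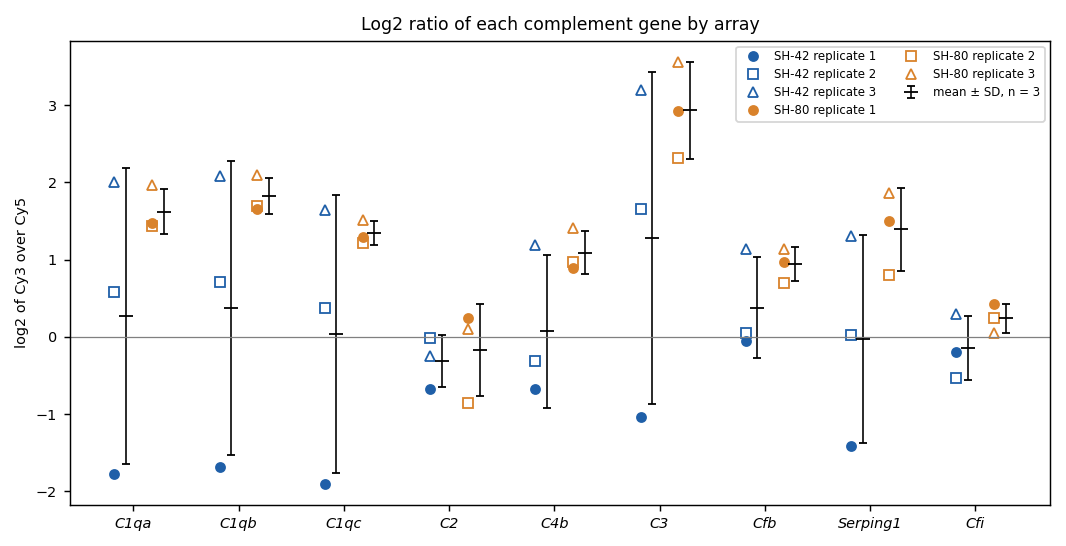
Log2 ratio of Cy3 over Cy5 of each complement gene on every array (blue, SH-42; orange, SH-80; symbols, replicate number), with the mean ± SD of each group (n = 3) in black. The SH-80 arrays of C1qa, C1qb, C1qc, C4b, C3, Cfb and Serping1 lie above 0, and the SH-42 arrays of each of them spread from SH-42 replicate 1 at the bottom to replicate 3 near or among the SH-80 arrays.

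Over the 9 members, 8 were positive on every SH-80 array, all but C2, and 0 were positive on every SH-42 array. The number of positive members was 0, 6 and 8 on SH-42 replicates 1 to 3 and 9, 8 and 9 on SH-80 replicates 1 to 3. For SH-80, 2 of 9 members passed, C3 and Cfb, both higher, beside 14.7% of all genes that passed in either direction and 4.67% that passed higher. At an unadjusted p under 0.05 the count was 6 of 9, beside 35.6% of all genes, so a p of that size was common on these arrays. The median of the members was 1.34, beside -0.0301 over all genes. For SH-42, limma called 0 of 9 members, beside 0.585% of all genes, and 0 of 9 at an unadjusted p under 0.05, beside 23.4%. Their median was 0.0713, beside -0.0334 over all genes.

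The count for SH-80 depended on which arrays were in the fit. Leaving out SH-42 replicate 1 gave 7, all higher, in a fit that called 38.9% of all genes and 16.1% higher. Leaving out SH-42 replicate 3 gave 4, also all higher, beside 13.4% of all genes and 4.32% higher. Leaving out SH-42 replicate 2 gave 0, beside 9.46% of all genes, and leaving out any single SH-80 array gave 0, beside 0% of all genes. The SH-80 means of C3, C4b, Cfb, Serping1 and the C1q chains were positive in each case. That was fixed in advance, because these genes were positive on every SH-80 array. On slide 2 alone, which holds all SH-80 arrays and SH-42 replicate 3, 7 of 9 members passed for SH-80, all higher, beside 38.2% of all genes and 16% higher. There SH-42 replicate 3, a single array assumed to vary like the others, had 6 of 9 members past the threshold (C3, C4b, Cfb and the C1q chains), beside 4.98% of all genes, with Serping1 at 1.30 and an adjusted p of 0.0842. With the slide as a fixed block the SH-80 values were 1.49 for C3, 0.53 for C1qb, 0.39 for Serping1, 0.37 for Cfb, 0.32 for C1qa, 0.25 for C4b and 0.13 for C1qc. In that fit 0 of 9 members and 0% of all genes passed. These values lie midway between the slides, where no SH-80 array stood. The slide difference in them comes from the SH-42 arrays alone, replicates 1 and 2 against replicate 3. Slide 1 held arrays of SH-42 only, and its replicates 1 and 2 lay on opposite sides of 0 for C3 (-1.04 and 1.66) and for C1qb (-1.68 and 0.71).

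Tested directly against each other, the compounds showed no difference that passed in any member, and the intervals were wide. In the fit of all 6 arrays SH-42 minus SH-80 was negative for all 9 members, from -1.65 ± 1.03 for C3, with a 95% interval of -4.14 to 0.83, to -0.14 ± 0.324 for C2, with an interval of -0.93 to 0.64. Serping1 stood at -1.41 ± 0.673 (interval -3.04 to 0.21) and C4b at -1.02 ± 0.477 (interval -2.17 to 0.14). The adjusted p was 0.858 for C2 and 0.69 for each of the others. Limma called 0 of 9 members, beside 0% of all genes, and 0 of 9 at an unadjusted p under 0.05, beside 3.9% of all genes. Ratios of the groups did not separate in any member (0 of 9), beside 13.5% of all genes. Without SH-42 replicate 1 the C3 difference was -0.50 ± 0.519 (adjusted p = 0.947), and on slide 2 alone it was 0.27 ± 0.443 (adjusted p = 0.993). On slide 2 alone 7 of the 9 differences were positive, from 0.06 for Cfi to 0.38 for C1qa, and those of Serping1 (-0.09) and C2 (-0.08) were negative, so the direction depended on which arrays were in the fit.

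The single channels show where the difference between the arrays lay. In Cy3, SH-42 minus SH-80 ranged from -0.14 ± 0.0674 for C1qb to 0.05 ± 0.0744 for C1qc over the 9 members, and for C3 it was -0.06 ± 0.0409 with a 95% interval of -0.16 to 0.04. Limma called 0 of 9 members in Cy3 (0% of all genes), and 0 at an unadjusted p under 0.05 (9.33% of all genes). In Cy5, labelled control on both sets of arrays, the differences were positive for all 9 members, from 0.06 ± 0.308 for C2 to 1.59 ± 1.03 for C3, whose interval was -0.91 to 4.09. Limma called 0 of 9 members there too (0% of all genes), and 0 at an unadjusted p under 0.05 (3.6% of all genes). No member's groups were apart in either channel (0 of 9 in each), beside 16.3% of all genes in Cy3 and 13.3% in Cy5.

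Among themselves, C3, C4b, Cfb, Serping1 and the C1q chains correlated at r of 0.859 to 0.999 over the 6 arrays, and at 0.883 to 0.992 over the 5 arrays without SH-42 replicate 1. The 3 pairs of C1q chains stood at 0.998 to 0.999, and at 0.987 to 0.992 without that array. Cfi correlated with the others at 0.0396 to 0.802, and at -0.146 to 0.836 without that array. Its r with the C1q chains was 0.559 to 0.573 over 6 arrays and 0.739 to 0.836 over 5, where Serping1 stood at 0.956 to 0.961 and at 0.883 to 0.888. These are descriptions over few arrays that share dyes and possibly control pools. Of 2286 genes with a symbol whose log2 ratio spanned at least 1, and outside the complement lists, those most like C3 over the 6 arrays were Ms4a7, a macrophage membrane protein (r = 0.9985), Tlr2, a receptor for bacterial lipoproteins (0.9977), the phosphatase gene Ptpn6 (0.9972), Lgals3bp (0.9972), Clic6 (0.9969), Igsf10 (0.9965), Mamdc2 (0.9964) and S100a1 (0.9963). Those most like the mean of the C1q chains were the immunoproteasome subunit gene Psmb9 (0.9993), Bcl2a1d (0.9989), Tgtp2 (0.9987), Cd300c2 (0.9986), Ncf4, a subunit of the phagocyte oxidase (0.9986), the nucleotide receptor gene P2ry6 (0.9985), the metallothionein gene Mt1 (0.9985) and Lyz2, lysozyme of myeloid cells (0.9983). Without SH-42 replicate 1, these r values were 0.977 to 0.998.

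Of 60 genes listed for the whole complement system, 57 had a probe and 39 were tested. For SH-80, 4 of the 39 passed, beside 14.7% of all genes, of which 2 were higher, both members, and 2 were lower, Masp2 and Itgam. For SH-42 limma called 0. Of the 30 that are not members, 18 were positive for SH-80, with a median of 0.0885, and 12 for SH-42, with a median of -0.0846, beside -0.0301 and -0.0334 over all genes. With SH-42 replicate 1 left out, 18 of the 39 passed for SH-80, beside 38.9% of all genes, and 1 for SH-42, beside 1.78%. The list was not tested as a set. The terminal components Hc, C6, C7, C8a, C8b and C9 and the plasma genes Mbl1, Mbl2, C4bp, Cpn1 and Cpn2 were among those with no value here, as was Cfd, factor D of the alternative pathway.

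By role, the SH-80 median was 2.01 for the 2 central components, 1.34 for the 5 recognition genes and 0.386 for the 8 receptors. It was 0.24 for the 7 fluid-phase regulators, 0.186 for the 7 proteases and 0.0171 for the 9 membrane regulators. The only terminal component tested, C8g, stood at -0.07 ± 0.0621, with its other probe at -0.4.

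Masp2, a protease of the lectin pathway, had an SH-80 difference of -0.49 ± 0.0779 (adjusted p = 0.0273), with -0.37, -0.58 and -0.52 on the 3 SH-80 arrays. Its probe was not well above background in Cy3 on any array. By the mean of the measured signals, Cy5 was 1.4-fold brighter on the SH-80 arrays. One other probe of Masp2 lay at 0.12 and another at -0.52. Itgam, a chain of complement receptor 3, differed by -0.58 ± 0.108 (adjusted p = 0.0294) by its brightest probe, with -0.51, -0.46 and -0.78 on the SH-80 arrays. Its 2 other probes read -0.32 and 0.44, so its direction depends on the probe. Its partner chain Itgb2 stood at 1.03 ± 0.421 (adjusted p = 0.138). Of the membrane regulators, the smallest p for SH-80 were those of Cd55b (0.18 ± 0.061, adjusted p = 0.0949) and Csmd3 (-0.25 ± 0.0937, adjusted p = 0.115). Both were not well above background in Cy3. The other probe of Cd55b read -0.26, so its direction depends on the probe, and that of Csmd3 read -0.13.

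For SH-42, genes of small p outside the members fell short of the threshold in each role. Among them were the collectin gene Colec12 (-0.52 ± 0.215, adjusted p = 0.213), Masp2 (-0.20 ± 0.0779, adjusted p = 0.198), the vitronectin gene Vtn (0.20 ± 0.0909, adjusted p = 0.236), Cd59b (-0.28 ± 0.117, adjusted p = 0.212), Cd55b (0.16 ± 0.061, adjusted p = 0.197), Itgam (-0.31 ± 0.108, adjusted p = 0.173) and the receptor gene Vsig4 (-0.50 ± 0.25, adjusted p = 0.273). Colec12, Masp2, Cd59b, Cd55b and Vsig4 were not well above background in Cy3 on any array. In SH-42 minus SH-80 the smallest p outside the members were those of Masp2 (0.29 ± 0.11), Vtn (0.26 ± 0.129), Csmd1 (0.33 ± 0.14), Csmd3 (0.24 ± 0.133), the C5a receptor gene C5ar2 (-0.37 ± 0.158) and Itgb2 (-1.11 ± 0.595), each at an adjusted p of 0.69.

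**Figure D4:**
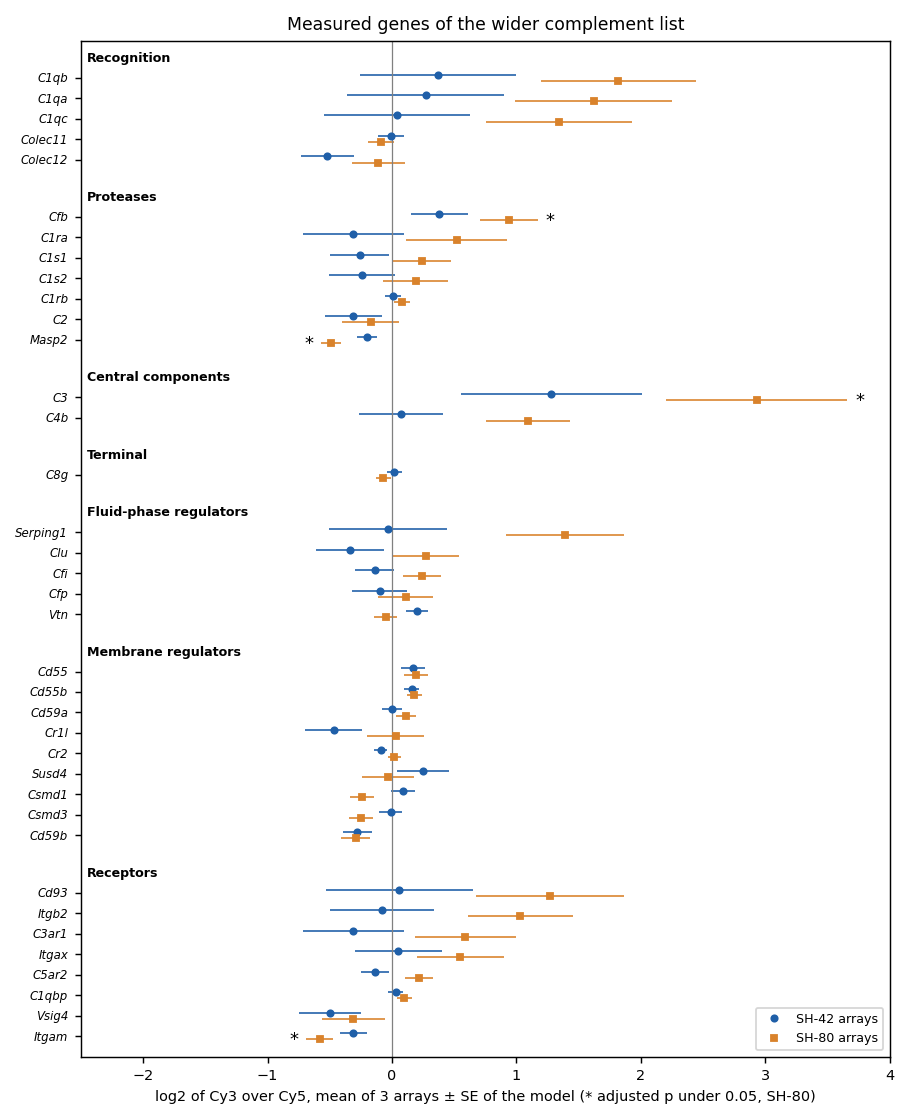
Mean log2 ratio of Cy3 over Cy5 over 3 arrays, with the SE of the model, of 37 measured genes of the wider complement list, grouped by role, for the SH-42 arrays (blue circles) and the SH-80 arrays (orange squares). Asterisks mark the SH-80 values that passed, C3, Cfb, Masp2 and Itgam, and the farthest squares to the right are those of C3 and C1qb.

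Markers of cells and responses that could carry these genes were read on the same arrays, and their part in the result was not tested. Of 11 microglia markers tested, 10 were positive for SH-80, with a median of 0.556, and the median on single arrays was -1.26, 0.0363 and 0.735 for SH-42 replicates 1 to 3 and 0.539 to 0.576 for SH-80. Microglia markers summed to a log2 Cy5 signal of 17.17 to 17.68 on the SH-42 arrays and of 17.11 to 17.21 on the SH-80 arrays, and to a log2 Cy3 signal of 16.96 to 17.27 and of 16.83 to 16.95. Siglech, at a log2 Cy5 signal of 16.95 to 17.19, made up most of both sums. Without it, an omission chosen after its values were seen, the other 10 markers summed to a log2 Cy5 signal of 16.24, 14.25 and 13.48 on SH-42 replicates 1 to 3 and of 13.52 to 13.78 on the SH-80 arrays, with 14.69 to 14.78 in Cy3. Their Cy5 sum was thus highest on SH-42 replicate 1, as for C3. Siglech, which was lower (-0.50 ± 0.0984, adjusted p = 0.0315, with its other probe at 0.13), was the only one of the 11 to pass, beside 14.7% of all genes. P2ry12 stood at 0.30 ± 0.0935 (adjusted p = 0.073), Tyrobp at 2.37 ± 0.725 (adjusted p = 0.0729) and Tmem119 at 0.71 ± 0.219 (adjusted p = 0.0743). With SH-42 replicate 1 left out, 10 of 11 microglia markers, 5 of 7 of monocytes and macrophages, 9 of 12 of acute phase and gliosis and 7 of 10 of lens fibre passed for SH-80. Also past the threshold were 5 of 8 of pigment epithelium, 4 of 7 of endothelium, 4 of 10 of rods and 3 of 4 of neutrophils. So were 4 of 10 of Müller glia and astrocytes, 2 of 2 of liver, 3 of 11 interferon genes and 3 of 6 NF-kB targets. The skeletal muscle, cornea and red cell lists had 0. These counts are in either direction, and the fit called 38.9% of all genes.

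All 7 monocyte and macrophage markers tested were positive for SH-80, with a median of 0.465 and 0 past the threshold. Their log2 Cy5 sum was 10.44 to 14.61 on the SH-42 arrays and 10.48 to 11.09 on the SH-80 arrays, with 12.20 to 12.52 and 12.37 to 12.42 in Cy3, while Ccr2, Cd163 and Ly6c2 did not pass the filter. The 12 genes of acute phase and gliosis had 11 positive for SH-80, a median of 1.15, and 4 that were higher: Saa3, Lif, Lcn2 and Steap4. Their median by array was -1.05, 0.109 and 1.24 for SH-42 and 1.15, 1.14 and 1.18 for SH-80, the same order of SH-42 arrays as in C3. Lcn2, an acute-phase iron-trapping protein, stood at 1.88 ± 0.461 (adjusted p = 0.0451). Saa3, whose Cy5 signal was not well above background on any SH-80 array, was higher by 2.11-fold by the mean of the measured signals (adjusted p = 0.0155). Rod markers did not follow: 4 of 10 were positive, with a median of -0.0687 for SH-80. Lens fibre genes, of the tissue beside the vitreous, had 7 of 10 higher for SH-80. Their medians by array were 2.14, 0.583 and 0.932 for SH-42 and 3.36, 1.47 and 3.23 for SH-80, an order other than that of C3. Beside these counts, 14.7% of all genes passed for SH-80 in either direction and 4.67% passed higher.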

How the data were processed

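RNA of pooled mouse retina was measured on 6 two-colour Agilent arrays, 3 per compound. Per the file headers, the deposited scanner files give median and processed intensity per spot, the background around it, and a log10 ratio of red over green that was not used. The file headers name Agilent Feature Extraction 11.0.1.1 and the submitters' processing notes 9.3.2.1. The authors' deposited value table, judged by its values, is on the log2 scale and gives processed Cy5 relative to Cy3, with 99.7% of values within 0.01 of a constant per array and column medians of -0.0531, -0.0606, -0.0612, -0.0611, -0.0464 and -0.0754 in the order SH-42, SH-80. Its direction relative to the treated RNA is unknown.

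Median signals were corrected with normexp (offset 50) and normalized by loess within arrays. Single channels were then put on a common scale with Aquantile. Control spots and spots marked as outliers had weight 0, and 3 member spots were left out for that mark over the 6 arrays. Of 43020 spots holding 39429 probes, 26055 probes matched a symbol through RefSeq transcript accessions, which give names only, since the array headers name another genome build than RefSeq's here. A probe had to stand well above background in Cy3 or Cy5 on 3 or more arrays, which removed 9944. The brightest probe stood for a gene, and unnamed probes were kept singly, which gave 24438 genes, 15957 of them with a symbol. Comparisons other than SH-42 against control had 24437 of them, because of spots left out.

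limma 3.58.1 in R 4.3.3 fitted 1 mean per compound over all 6 arrays, and two-sided p-values were adjusted across all genes tested by Benjamini-Hochberg, with 0.05 as the threshold. A fold beside a log2 value is 2 to its power. The fit was run on simulated data with known changes, as a check of the code only. The simulated arrays were independent and of equal spread, whereas the SD of log2 ratios on the real arrays was 0.157 to 0.498. The simulation therefore cannot show how reliable the calls on these arrays are. The number of arrays limits the precision. Whether replicate numbers pair the arrays could not be settled, and the main fit did not pair them. The members and lists were chosen with earlier results of these data known. All members are named with every probe, from the wider complement list those past the threshold and those of smallest p per role, from the marker lists at most 4 by smallest p for SH-80, and the 8 genes most like C3 or the C1q mean. Results of an item withheld here are not reported. Promoter motifs were chosen after the data were seen. Files were read with the R packages jsonlite 2.0.0 and data.table (version 1.17.8), and figures drawn with matplotlib 3.10.9 in Python 3.11.15.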

Additional observations from a re-analysis of the deposited data

How the results depend on the processing

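Every SH-80 array was positive for C3, C4b, Cfb, Serping1, C1qa, C1qb and C1qc, so leaving out arrays could not turn their SH-80 means. Their SH-80 values were also positive under every other alternative that was run. With the slide as a fixed block they were 1.49, 0.25, 0.37, 0.39, 0.32, 0.53 and 0.13 in that order, against 2.93, 1.09, 0.94, 1.39, 1.62, 1.82 and 1.34. The fixed-block values lie midway between the slides, although no SH-80 array was on slide 1. Cfb stood at 1.9 with processed signals and 1.96 with the deposited value table. How many of the 9 members passed also varied. The count of 2 became 0 with a normexp offset of 0 (beside 11.1% of all genes), the deposited value table (20.1%), scale normalization (2.77%) and the strict probe filter (11.6%). It was 0 as well with the slide as a fixed block (0%) and as a random block (10.1%). It became 7 with each compound's own arrays alone (38.2%, 16% higher), for SH-80 the same fit as slide 2 alone, and with array weights (42.3%, 17.4% higher). It ran from 0 to 7 when single arrays were left out, beside 0% to 38.9% of all genes. For SH-42 the count of 0 became 1 with array weights and 6 on slide 2 alone, and ran from 0 to 1 when single arrays were left out. The fit with array weights called 13.2% of all genes for SH-42, against 0.585% in the main fit, so its 1 member stood beside many other calls. When single arrays were left out, 0% to 1.78% of all genes passed for SH-42. With the replicate number as a block the SH-80 count was 0 and the SH-42 count 0, beside 0% of all genes for each. Same-numbered arrays correlated in their deviations from the compound means at -0.151, -0.43 and 0.181 for replicates 1 to 3. Only SH-42 replicate 3 correlated best with the SH-80 array of its own number. With 3 arrays per compound, this cannot settle whether the numbers pair the arrays. The difference between compounds had 0 members called under every alternative, beside 0% of all genes in each. Values that turned sign were mostly SH-42 means and differences between compounds. For SH-42 they were C4b (-0.13) and Serping1 (0.15) with array weights; C4b (-0.43), C1qa (-0.14), C1qb (-0.01) and C1qc (-0.42) with median centring; C4b (-0.15) and Serping1 (0.08) with scale normalization; Serping1 (1.3) and Cfi (0.3) on slide 2 alone; and Serping1 (0.3) with the slide as a fixed block, where Cfi for SH-80 was -0.09. SH-42 minus SH-80 turned for C2 with array weights (0.1, and -0.18 in Cy5) and for C3 with scale normalization (0.06). With the slide as a fixed block and on slide 2 alone it was 0.27 for C3, 0.11 for C4b, 0.2 for Cfb, 0.38 for C1qa, 0.26 for C1qb, 0.31 for C1qc and 0.06 for Cfi. In Cy5 it was then -0.27, -0.05, -0.11, -0.36, -0.26, -0.32 and -0.04 in the same order, and in Cy3 0.06 for C4b, 0.09 for Cfb, 0.01 for Serping1, -0.01 for C1qc and 0.05 for C2. Small Cy3 differences also turned for Cfb (0.02) and Cfi (-0.01) without background correction, for Cfi with processed signals (-0.01) and for C1qc (-0.05) and Cfi (-0.02) with median centring. Leaving out single arrays gave SH-42 ranges of -0.49 to 0.44 for C4b, -0.69 to 0.66 for Serping1, -0.59 to 1.29 for C1qa, -0.49 to 1.39 for C1qb, -0.77 to 1.00 for C1qc and -0.36 to 0.05 for Cfi, an SH-80 range of -0.38 to 0.18 for C2, and SH-42 minus SH-80 ranges of -0.49 to 0.07 for C2, -0.11 to 0.38 for C2 in Cy5, -0.03 to 0.09 for C1qc in Cy3 and -0.02 to 0.07 for Cfi in Cy3. The causes were not tested. Keeping the spots marked as outliers was an alternative chosen after seeing the data. Mean spot signals in place of medians were not run, for lack of that column. Dim probes, such as that of Cfb, are limited by signal over background.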

Other observations

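Of the other responses listed, interferon genes had 10 of 11 positive for SH-80 with a median of 0.233. Limma called 0 of them, beside 14.7% of all genes. Ifit2, an interferon-induced RNA-binding protein, stood at 0.28 ± 0.0931 (SE; limma adjusted p = 0.0877) and Oas1a, a sensor of double-stranded RNA, at 1.09 ± 0.412 (adjusted p = 0.116). The interferon medians on single arrays were -0.618, -0.278 and 0.349 for SH-42 replicates 1 to 3 and 0.15, 0.229 and 0.323 for SH-80 replicates 1 to 3, so that SH-42 replicates 1 and 2 were both below 0. NF-kB target genes had 4 of 6 positive for SH-80 with a median of 0.207 and none past the threshold. Of the 4 neutrophil markers tested, 3 were positive for SH-80, with a median of 0.471.

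Among Müller glia and astrocyte markers, 8 of 10 were positive for SH-80 with a median of 0.137. Glul, the glutamine synthetase of Müller glia, was the only one of the 10 to pass, beside 14.7% of all genes. It was lower (-0.59 ± 0.116, limma adjusted p = 0.0323), with ratios of -0.07, 0.03 and -0.50 on the SH-42 arrays and -0.40, -0.65 and -0.71 on the SH-80 arrays. Gfap, the intermediate filament of reactive glia, stood at 1.29 ± 0.534 (adjusted p = 0.141), with -1.97, -0.19 and 1.24 on the SH-42 arrays and 1.15, 1.07 and 1.64 on the SH-80 arrays, and was thus lowest on SH-42 replicate 1, as were C3 and the C1q chains.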
